A study of Mus musculus with 47 samples.

Results

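The comparison concerned the basal compartment of the mouse mammary gland between full lactation and the start of involution. It used 5 of the 46 libraries of the series that had values, all sorted as basal cells: 3 libraries from day 2 of involution (Id2, replicates 2, 4 and 6) and 2 from day 10 of lactation (L10, replicates 5 and 6). Cell type and time point, as labelled, define the members. All mice were of the inbred strain FVB/N, without transgene or treatment. L10 mothers were nursing at day 10 after birth, and Id2 mothers had their pups removed at day 10 and were killed 2 days later. Each library came from 1 sort of CD24+ CD29hi cells from the pooled glands of 4 mice, after cells bearing blood, endothelial and other surface markers had been removed. Luminal cells (CD24+ CD29lo) were collected in the same sorts. The whole series covers 8 time points, from 10-week-old virgins (W10) through pregnancy and lactation to 4 weeks after weaning, and includes 4-month-old virgins. The Id2 and L10 libraries were amplified in different batches and sequenced in different lanes, so the change of stage and the change of batch cannot be told apart. The Id2 libraries shared their amplification batch with W10, whose 3 basal libraries served as the within-batch reference, although they were sequenced in another lane (2, against 3 for Id2).

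The basal layer of the mammary gland is made largely of myoepithelial cells, which lie between the luminal cells and the basement membrane. They are epithelial cells with keratins and a smooth muscle contractile apparatus. Oxytocin released during suckling acts on their receptor, raises calcium through Gq signalling, and makes them contract and eject milk. When suckling stops, milk stasis starts involution: LIF and STAT3 signalling in the epithelium, death of secretory cells, then remodelling of the matrix by proteases.

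The values were normalized read counts scaled to library size (counts per 1e+06 reads, CPM) by the authors, from which whole reads could be recovered. The Id2 libraries of replicates 2, 4 and 6 held 8485798, 11204244 and 7382662 reads, and the L10 libraries of replicates 5 and 6 held 13128473 and 13779302 reads. At that depth 3 reads, taken as the floor of detection, corresponded to 0.262 to 0.485 CPM. Differences are given as log2 fold changes of CPM + 1, which understate the change of genes at low CPM.

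The sorted label was compared with marker genes of the cell types that a gland holds. Summed over 14 myoepithelial markers, the L10 libraries had 57119 and 65357 CPM and the 3 W10 libraries averaged 25188 CPM. The Id2 libraries had 1412 CPM in replicate 2, 18054 CPM in replicate 4 and 1175 CPM in replicate 6. These sums were 2.31%, 29.5% and 1.92% of the L10 mean, and none of the 14 markers was at 0 in any of the Id2 libraries. The median marker was lower, at 0.42%, 9.57% and 0.96% of its L10 mean. Most of the sum of replicate 4 came from *Acta2* (8399 CPM) and *Myh11* (5346 CPM). In each Id2 library the marker with the highest CPM was *Acta2*, smooth muscle actin, which pericytes and vascular smooth muscle also make. The Id2 libraries of replicates 2 and 6 therefore went against their label, and in replicate 4 the median marker was also far below L10. All 3 are called Id2 libraries below, without the claim that they hold mainly myoepithelial cells.

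The marker sums of other cell types differed between the Id2 libraries. Of these sums the endothelial one was highest in replicate 2 and the fibroblast one in replicates 4 and 6. The 16 fibroblast markers summed to 5063, 14832 and 105092 CPM in Id2 replicates 2, 4 and 6, against 3618 and 4552 CPM at L10. In replicate 6 this was 25.7 times the L10 mean, with *Postn* (periostin, a matrix protein) highest at 28120 CPM. The 16 endothelial markers summed to 25754, 1068 and 831 CPM at Id2 and to 2397 and 1190 CPM at L10. Replicate 2 was thus at 14.4 times the L10 mean, and its highest marker was *Vwf* (von Willebrand factor) at 7390 CPM. *Pecam1*, which encodes the CD31 antigen used to remove endothelial cells, was at 3210, 114 and 81.4 CPM at Id2 and at 241 and 122 CPM at L10. The 12 markers of pericytes and vascular smooth muscle summed to 3467, 12550 and 2845 CPM at Id2. They were already at 10196 and 17753 CPM at L10, against a mean of 276 CPM at W10. *Rgs5*, a pericyte marker, was the most abundant of them by CPM. *Pdgfra*, which encodes CD140a, also an antigen of the negative sort (with an antibody listed as one to the human protein), was at 51.5, 301 and 2002 CPM at Id2 against 4.98 and 1.04 CPM at L10. Fewer cells of a type and less RNA per cell cannot be told apart in these sums, and the part of other cells in the results below was not tested.

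**Figure D1:**
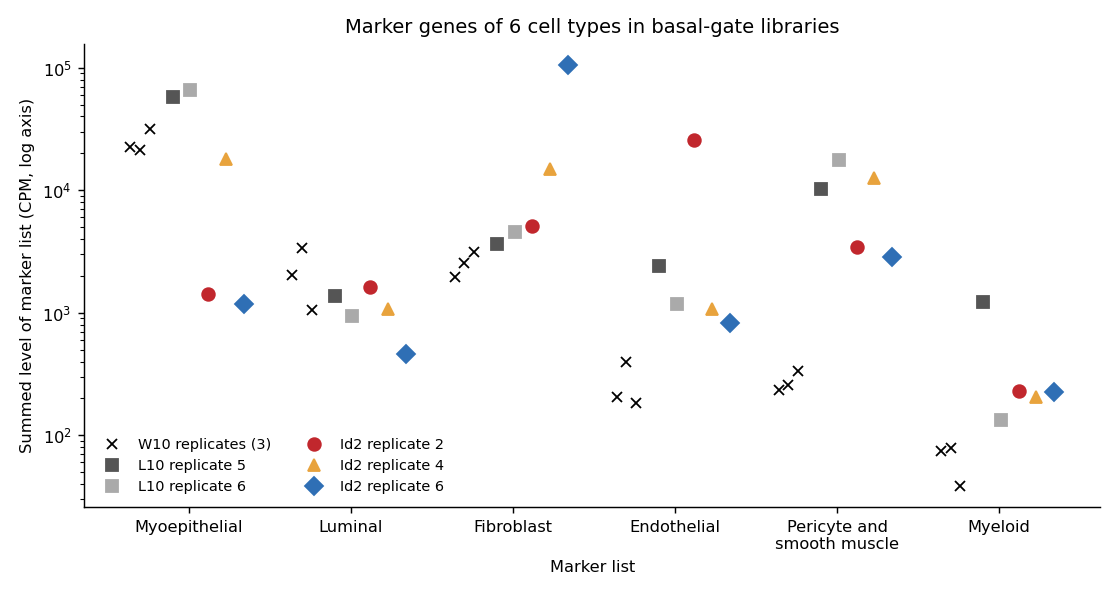
Summed CPM (log axis) of the marker genes of 6 cell types in the 3 Id2, 2 L10 and 3 W10 basal libraries, each point 1 library. The myoepithelial sum was below both L10 libraries in all 3 Id2 libraries, the endothelial sum stood out in replicate 2 at 25754 CPM and the fibroblast sum in replicate 6 at 105092 CPM.

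The remaining lists differed less between the groups or were short. The 20 luminal markers summed to 1625, 1066 and 459 CPM at Id2 and to 1363 and 933 CPM at L10, so the groups overlapped. The 15 myeloid markers summed to 231, 204 and 227 CPM at Id2 and to 1234 and 134 CPM at L10. Of 12 adipocyte markers 8 were in the table. They summed to 4239, 1233 and 353 CPM at Id2 and to 1452 and 1613 CPM at L10. By the limma test given below 3 of the 8 fell (1 by edgeR) and none rose, where 7.68% of all genes fell. In 5 of the 8 all 3 Id2 libraries lay below both L10 libraries (18% of all genes), with a median log2 fold change of −1.36. The median was −0.83 without Id2 replicate 6, and 1 fall was called without L10 replicate 6. *Fabp4*, a fatty acid carrier that endothelial cells also make, was at 3719 CPM in Id2 replicate 2. *Lep*, which encodes leptin, was instead high at L10 (278 and 167 CPM) and low at Id2 (0.781, 10.9 and 0.162 CPM). The 4 red cell genes in the table summed to 493, 15.8 and 25.5 CPM at Id2 and to 67.4 and 54.9 CPM at L10, highest in the library with the high endothelial sum.

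The Id2 libraries differed widely among themselves. Replicates 2 and 6 had 1786 of 17078 genes at least 4-fold apart, which was 10.5% of the table. Replicates 4 and 6 had 768 such genes (4.50%), and the 2 L10 libraries had 1024 (6.00%). Id2 replicate 4 and L10 replicate 5 were 4-fold apart for only 808 genes (4.73%), fewer than Id2 replicates 2 and 4 were from each other (1358 genes, 7.95%). The median SD over genes was 0.444 on the log2 scale among the Id2 libraries, the highest of the 16 groups of the series, against 0.356 at L10 and 0.264 at W10.

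From L10 to Id2, of 17078 genes tested, 962 rose (5.63%) and 1312 fell (7.68%), at a change of at least 2-fold and an adjusted p under 0.01 by limma. The edgeR count test on the recovered reads called 879 higher (5.15%) and 1008 lower (5.9%), and 736 (4.31%) and 936 genes (5.48%) were called by both. For 19.8% of all genes every Id2 library lay above both L10 libraries, and for 18% every Id2 library lay below both. Among the called genes this held for 911 that rose (5.33% of the genes tested) and 1248 that fell (7.31%). Id2 replicate 4 was the closest of the 3 to L10 for 865 of the 1312 genes that fell (65.9%) and for 435 of the 962 that rose (45.2%), for which replicate 2 was closest in 330 and replicate 6 in 197. Replicate 4 was also the highest of the 3 for all of the 15 largest decreases named below. The median difference of the 1312 genes from the L10 mean was −2.24, −1.43 and −2.13 in replicates 2, 4 and 6. Without L10 replicate 6 the calls dropped to 320 higher and 582 lower. With replicate 4 as the single Id2 library, 249 genes were higher and 311 lower.

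The smooth muscle contractile apparatus fell almost as a whole. Of 20 genes 18 fell and none rose by limma (7.68% of all genes fell), and 14 fell by edgeR (5.9%). In 19 all 3 Id2 libraries lay below both L10 libraries (18% of all genes). The median log2 fold change was −3.33, beside 0.06 over all genes. Read library by library, the median was −3.90 in replicate 2, −1.19 in replicate 4 and −4.58 in replicate 6. With replicate 4 as the single Id2 library only 4 of the 20 were called. The 14 myoepithelial markers share 4 genes with this list.

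Calponin 1 (*Cnn1*, ENSMUSG00000001349), an actin-binding protein of differentiated smooth muscle, was at 8.74, 316 and 8.08 CPM in Id2 replicates 2, 4 and 6 and at 4327 and 5286 CPM at L10. All 3 Id2 libraries were far below L10, with replicate 4 in between. Its log2 fold change was −7.30 ± 0.78 (SE), with an adjusted p of 1.27e-08 by limma. The gamma smooth muscle actin gene *Actg2* was at 4.53, 162 and 2.59 CPM against 1367 and 1629 CPM, the same order of libraries, with a log2 fold change of −6.66 ± 0.82 (limma adjusted p = 2.07e-07). The smooth muscle myosin heavy chain gene *Myh11* was at 307, 5346 and 284 CPM against 19627 and 26675 CPM. It fell by 4.88 ± 0.72 on the log2 scale, and replicate 4 kept 23.1% of the L10 mean where replicates 2 and 6 kept 1.33% and 1.23%.

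*Acta2* (ENSMUSG00000035783) was at 537, 8399 and 515 CPM at Id2 and at 17766 and 16996 CPM at L10. The groups did not overlap, but replicate 4 was at 48.3% of the L10 mean and close to the W10 mean of 10174 CPM. The log2 fold change was −3.71 ± 0.69 (limma adjusted p = 1.31e-04), and edgeR did not call it. The myosin light chain gene *Myl9* was at 145, 2149 and 113 CPM against 5674 and 5686 CPM. The kinase that activates that chain, *Mylk*, was at 484, 3509 and 221 CPM against 6807 and 8842 CPM. Both fell by limma and by edgeR. Smoothelin (*Smtn*) was one of the few with little spread among the Id2 libraries, at 40.4, 78.2 and 53.8 CPM against 572 and 583 CPM, a log2 fold change of −3.36 ± 0.38. Leiomodin 1 (*Lmod1*), which nucleates actin filaments, was at 13.6, 187 and 11.3 CPM against 894 and 1147 CPM. Only alpha-actinin 1 (*Actn1*), at 545, 439 and 147 CPM against 536 and 597 CPM, and the phosphatase inhibitor *Ppp1r14a*, at 16.9, 18.7 and 10.3 CPM against 39.5 and 33.2 CPM, did not pass the test. Desmin (*Des*), the intermediate filament protein of muscle and pericytes, was at 61.7, 500 and 28.6 CPM against 606 and 863 CPM, with a W10 mean of 3.54 CPM. Its L10 level stood far above W10, as that of the pericyte marker *Rgs5* did, whereas *Cnn1* and *Acta2* were already abundant at W10.

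**Figure D2:**
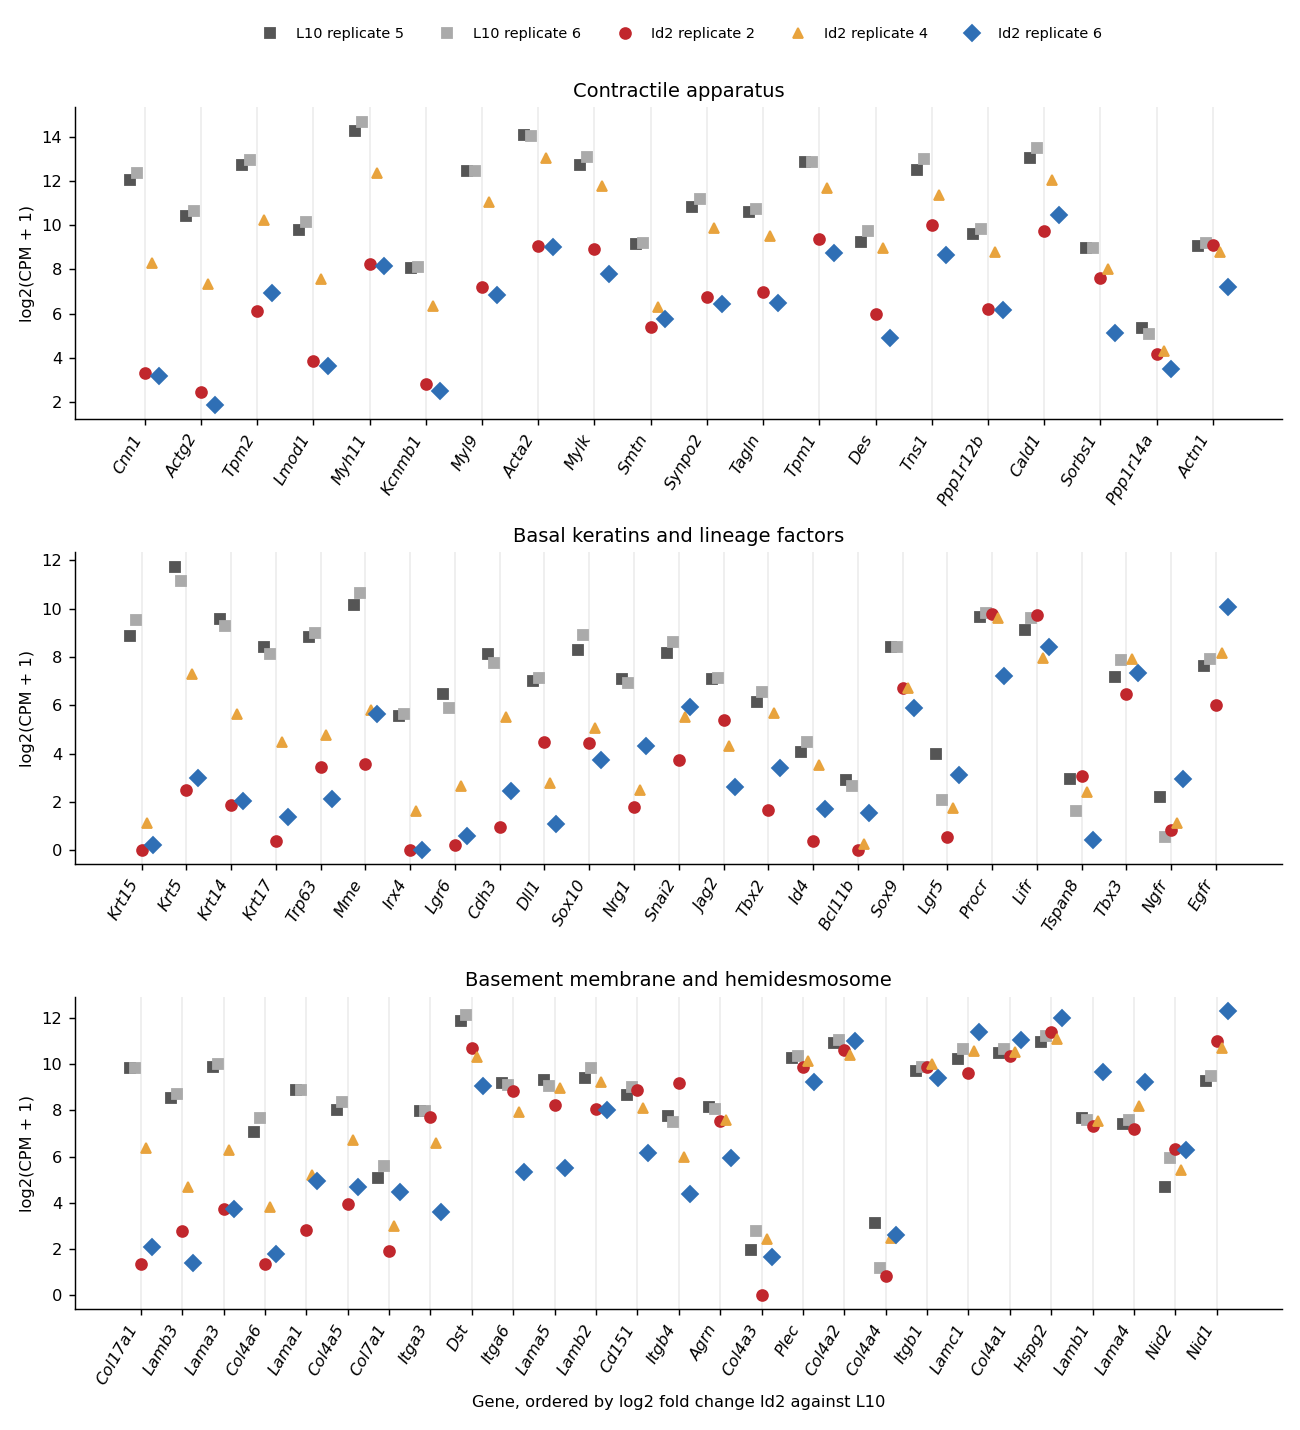
log2(CPM + 1) of the contractile, keratin and lineage, and basement membrane genes in each of the 3 Id2 and 2 L10 basal libraries, 1 point per library. Id2 replicate 4 lay between the other Id2 libraries and L10 for most of the contractile genes, for example *Cnn1* at 316 CPM against 8.74 and 8.08 CPM.

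Contractile genes are known targets of serum response factor, which binds the CArG box. The promoters of the genes below are shown because they belong to genes of this list or to the factor itself and hold the motif: the 250 bases before the start (RefSeq, build GRCm38.p6), 5′ to 3′ on the gene's strand, with each CArG box in capitals. The box was searched by its name's usual form, CC, 6 bases of A or T with at most 1 exception, then GG, which reads the same on both strands.
Acta2: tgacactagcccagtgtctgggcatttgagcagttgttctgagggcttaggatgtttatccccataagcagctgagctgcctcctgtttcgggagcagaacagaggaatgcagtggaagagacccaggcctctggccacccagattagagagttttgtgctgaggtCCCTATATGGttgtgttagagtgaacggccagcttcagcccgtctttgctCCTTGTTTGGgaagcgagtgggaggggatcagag
Myl9: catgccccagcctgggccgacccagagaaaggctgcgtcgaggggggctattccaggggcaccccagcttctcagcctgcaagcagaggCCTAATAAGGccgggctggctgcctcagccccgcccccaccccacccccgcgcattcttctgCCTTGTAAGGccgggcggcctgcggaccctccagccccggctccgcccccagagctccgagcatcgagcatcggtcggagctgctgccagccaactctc
Srf: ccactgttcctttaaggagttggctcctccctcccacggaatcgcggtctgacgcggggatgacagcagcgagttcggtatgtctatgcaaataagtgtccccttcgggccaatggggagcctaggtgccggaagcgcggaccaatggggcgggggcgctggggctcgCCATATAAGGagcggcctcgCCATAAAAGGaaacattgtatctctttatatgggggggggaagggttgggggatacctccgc

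The *Acta2* promoter (chr19:34255374-34255623, minus strand) had boxes starting 84 and 34 bases before the gene's start. That of *Myl9* (chr2:156775214-156775463, plus strand) had them at 161 and 99 bases, and that of *Srf* (chr17:46556163-46556412, minus strand) at 82 and 62 bases. Among the contractile genes 2 of 16 with a promoter in the table held a box (12.5%), against 2643 of 27025 promoters overall (9.78%). In the list of the factor and its cofactors 3 of 9 did. A match is a description of these letters, and no binding was measured.

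The factor's own list fell less. Of its 12 genes 5 fell (3 by edgeR) and none rose, beside 7.68% of all genes fallen by limma, with a median of −1.04. The 5 calls became 2 without Id2 replicate 6 and 0 without L10 replicate 6, with medians of −0.67 in both cases. *Srf* was at 86.7, 113 and 49.8 CPM at Id2 and at 237 and 424 CPM at L10, all 3 below L10 with little spread, and it fell by both tools (limma adjusted p = 7.18e-05). Its coactivator gene *Mrtfa* was at 37.2, 133 and 51.2 CPM against 173 and 299 CPM, and it fell as well. Myocardin (*Myocd*), the smooth muscle coactivator, was at 16.4, 301 and 11.2 CPM against 283 and 384 CPM. Replicate 4 lay between the L10 libraries, so the groups overlapped although limma called the mean lower and edgeR did not.

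The oxytocin receptor gene *Oxtr* (ENSMUSG00000049112) was at 1.56, 98.2 and 6.3 CPM at Id2 and at 2652 and 2932 CPM at L10. All 3 Id2 libraries lay far below both L10 libraries, and replicate 4 was again the highest of them. The log2 fold change was −7.83 ± 0.87 (limma adjusted p = 2.74e-08), the second of all decreases after *Krt15* among the genes named by size. The receptor and Gq signalling list, with *Oxtr* among its members, moved less as a whole: 4 of 21 fell (2 by edgeR) and none rose. By limma 7.68% of all genes fell. The list median was −0.73. It was −0.35 without Id2 replicate 6 and also without L10 replicate 6, and 6 fell without Id2 replicate 4. The alpha-1B adrenergic receptor gene *Adra1b* was at 2.19, 9.88 and 1.62 CPM against 21 and 38.8 CPM. The phospholipase *Plcb1*, which acts after Gq, was at 70.6, 48.8 and 16.2 CPM against 173 and 175 CPM. Both fell by limma, and *Plcb1* also by edgeR. *Adra2c* fell by limma from low levels (7.16 and 2.18 CPM at L10). The related receptor genes *Adra1d* (1.09, 6.4 and 3.07 CPM against 6.29 and 33.9 CPM) and *Adra2a* (5.15, 14.7 and 5.82 CPM against 9 and 56.1 CPM) did not pass. The vasopressin receptor gene *Avpr1a* was at 332, 1843 and 213 CPM at Id2 and at 326 and 435 CPM at L10, overlapping, while W10 averaged 6.45 CPM.

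Of 25 basal keratins and lineage factors 17 fell and none rose by limma (7.68% of all genes fell), and 15 fell by edgeR (5.9%). The list had 18 genes below both L10 libraries in each Id2 library, replicate 4 included (18% of all genes). Each Id2 library had 2 members above both L10 libraries. The 2 with a positive mean change were the growth factor receptor *Egfr* (63.6, 283 and 1055 CPM against 199 and 243 CPM) and the neurotrophin receptor *Ngfr* (0.781, 1.16 and 6.79 CPM against 3.58 and 0.475 CPM), and neither passed. The median was −3.32, and by library it was −4.15, −2.77 and −2.92 in replicates 2, 4 and 6. With replicate 4 as the single Id2 library 12 of the 25 were still called lower. This list shares 8 genes with the myoepithelial markers.

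Keratin 5 (*Krt5*, ENSMUSG00000061527), the defining keratin of basal cells, was at 4.68, 156 and 6.95 CPM at Id2 and at 3417 and 2264 CPM at L10. Replicate 4, the highest, was at 5.51% of the L10 mean. The log2 fold change was −7.18 ± 0.89 (limma adjusted p = 2.18e-07). Its partner *Krt14* was at 2.65, 49 and 3.07 CPM against 756 and 617 CPM, and fell by 6.24 ± 0.72. *Krt15*, a keratin of basal progenitors in other epithelia, was at 0, 1.16 and 0.162 CPM against 469 and 746 CPM. This was the largest decrease of all called genes whose groups did not overlap (−8.77 ± 0.71, limma adjusted p = 5.17e-11). *Trp63*, which encodes the p63 factor that maintains basal identity, was at 9.99, 26.6 and 3.39 CPM against 457 and 513 CPM, so all Id2 libraries, including replicate 4, were at or under 5.47% of L10.

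Other lineage genes fell to differing degrees in the 3 libraries. *Sox10*, a factor of basal and stem-like epithelium and of Schwann cells, was at 20.6, 32.6 and 12.4 CPM against 308 and 476 CPM. *Irx4*, a homeobox gene, was at 0, 2.03 and 0 CPM against 45.9 and 48.3 CPM. *Lgr6*, a Wnt pathway receptor of basal progenitors, was at 0.156, 5.23 and 0.485 CPM against 87 and 58.3 CPM. *Mme*, which encodes the surface peptidase CD10, was at 10.9, 54.9 and 49.1 CPM against 1123 and 1595 CPM. These fell by both tools. *Snai2*, a repressor that fibroblasts also express, was at 12.2, 44.8 and 60.3 CPM against 284 and 390 CPM, here highest in replicate 6. The T-box factor *Tbx2* (2.19, 49.5 and 9.7 CPM against 70.1 and 91.5 CPM) and *Id4* (0.312, 10.4 and 2.26 CPM against 15.8 and 21.6 CPM) fell by limma but not by edgeR, and replicate 4 was at 61.3% and 55.5% of their L10 means.

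The decreases chosen by size included further epithelial genes. *Fat2*, a protocadherin, was at 0.625, 5.81 and 1.29 CPM against 247 and 224 CPM. *Tenm2*, a teneurin adhesion receptor, was at 0.312, 21.8 and 1.29 CPM against 145 and 223 CPM. *Sostdc1*, a secreted BMP and Wnt inhibitor, was at 0, 0.969 and 0.646 CPM against 109 and 54.6 CPM. *Optc* (0.312, 2.23 and 0.162 CPM against 72 and 82.8 CPM) and *Phyhip* (0.312, 2.13 and 1.13 CPM against 123 and 100 CPM) were others. Only genes with non-overlapping groups could be chosen, so the order of groups was set by the choice. *Lep*, given above with the adipocyte markers, was also among these 15 genes, with a log2 fold change of −6.22 ± 0.54.

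Of 28 basement membrane and hemidesmosome genes 11 fell by limma (8 by edgeR) and none rose, where 7.68% of all genes fell by limma. The list median was −1.12. Without L10 replicate 6 the count was 7, and without Id2 replicate 6 the median was −0.56. The epithelial laminin genes were among the 11. *Lama3* was at 12.2, 77.3 and 12.3 CPM against 931 and 1018 CPM, and *Lamb3* at 5.93, 24.3 and 1.62 CPM against 373 and 419 CPM. Both encode laminin chains of the epithelial basement membrane, and all 3 Id2 libraries were below L10. The hemidesmosome collagen *Col17a1* was at 1.56, 81 and 3.23 CPM against 917 and 900 CPM (−6.56 ± 0.85, limma adjusted p = 5.38e-07). The type IV collagen genes *Col4a5* and *Col4a6* fell by 3.10 ± 0.44 and 5.04 ± 0.44 on the log2 scale. *Lama1* was at 6.09, 35.8 and 29.4 CPM against 477 and 469 CPM. Perlecan (*Hspg2*), the heparan sulfate proteoglycan of all basement membranes, was in contrast at 2710, 2174 and 4055 CPM against 1993 and 2420 CPM. Its groups overlapped and it did not pass (0.39 ± 0.37).

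Adhesion genes showed smaller changes. In the integrin adhesion complex 3 of 23 genes fell and 1 rose, where 7.68% of all genes fell and 5.63% rose. The list median was −0.59. The fallen genes numbered 7 without Id2 replicate 4 and 5 without Id2 replicate 2. *Tln1*, which couples integrins to actin, was at 405, 659 and 324 CPM against 959 and 1155 CPM and fell by 1.25 ± 0.22. Its relative *Tln2* was at 100, 112 and 122 CPM against 55.8 and 41.3 CPM and rose by 1.19 ± 0.32, but was not called without Id2 replicate 4, Id2 replicate 6 or L10 replicate 6. The paxillin-like *Tgfb1i1* was at 92.9, 239 and 140 CPM against 818 and 984 CPM. *Parvb*, an adaptor of the integrin-linked kinase complex, was at 400, 18.2 and 14.4 CPM against 48.7 and 45.7 CPM. Only replicate 2, with the high endothelial sum, was above L10, and the mean change of 0.028 ± 0.92 turned to −1.49 without that library. *Lims2*, of the same complex, was at 71.5, 60 and 15.4 CPM against 194 and 179 CPM and did not pass (limma adjusted p = 0.0153). The kinase gene *Ilk* was listed at 0, 0.485 and 0.646 CPM against 1.22 and 0.855 CPM. Other genes (*Rrp8* and *Taf10*) cover 89.7% of its exon bases, and its value is uncertain.

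Among cadherins, filamins and junction partners 9 of 21 genes fell and 3 rose (5 and 3 by edgeR). By limma 7.68% of all genes fell and 5.63% rose. The list median was −0.97. Leaving out L10 replicate 6 left 4 lower and 0 higher, and leaving out Id2 replicate 6 left 5 and 1. Without L10 replicate 5, 1 was higher. Without Id2 replicate 2, 2 were. The median was −1.61 without Id2 replicate 4. Desmoplakin (*Dsp*), which links desmosomes to keratins, was at 23.7, 86.1 and 8.73 CPM against 783 and 824 CPM. P-cadherin (*Cdh3*), the cadherin of basal cells, was at 0.937, 44.3 and 4.52 CPM against 280 and 213 CPM. N-cadherin (*Cdh2*) was at 7.03, 30.6 and 12.8 CPM against 56.1 and 96.6 CPM and fell by limma, not by edgeR. The 3 that rose were *Cdh11*, *Gja1* and *Gjb2*. *Cdh11*, a mesenchymal cadherin, was at 20, 86.7 and 408 CPM against 5.94 and 15.8 CPM, highest in replicate 6 like the fibroblast sum. *Gja1* (connexin 43) was at 2191, 141 and 745 CPM against 96.2 and 85.1 CPM, highest in replicate 2. *Gjb2* (connexin 26, of luminal cells) was at 88.5, 69.2 and 27 CPM against 11.6 and 1.61 CPM.

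The 22 basal libraries of the series placed these levels in the time course. *Krt5* ranged from 779 to 3849 CPM over the 19 basal libraries outside Id2, and the highest Id2 library was at 156 CPM. *Oxtr* was at 462 CPM or more in those 19 libraries and at 98.2 CPM or less at Id2. *Acta2* was between 4826 and 29688 CPM outside Id2. The Id2 library of replicate 4, at 8399 CPM, fell inside that range and the other 2 Id2 libraries below it. *Rgs5* was at 222.6 CPM or less in the 12 libraries of W10, early pregnancy, 4-month-old virgins and 4 weeks of involution, and at 753 CPM or more in those of late pregnancy, lactation and Id2. The level of this pericyte marker was thus raised before involution.

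**Figure D3:**
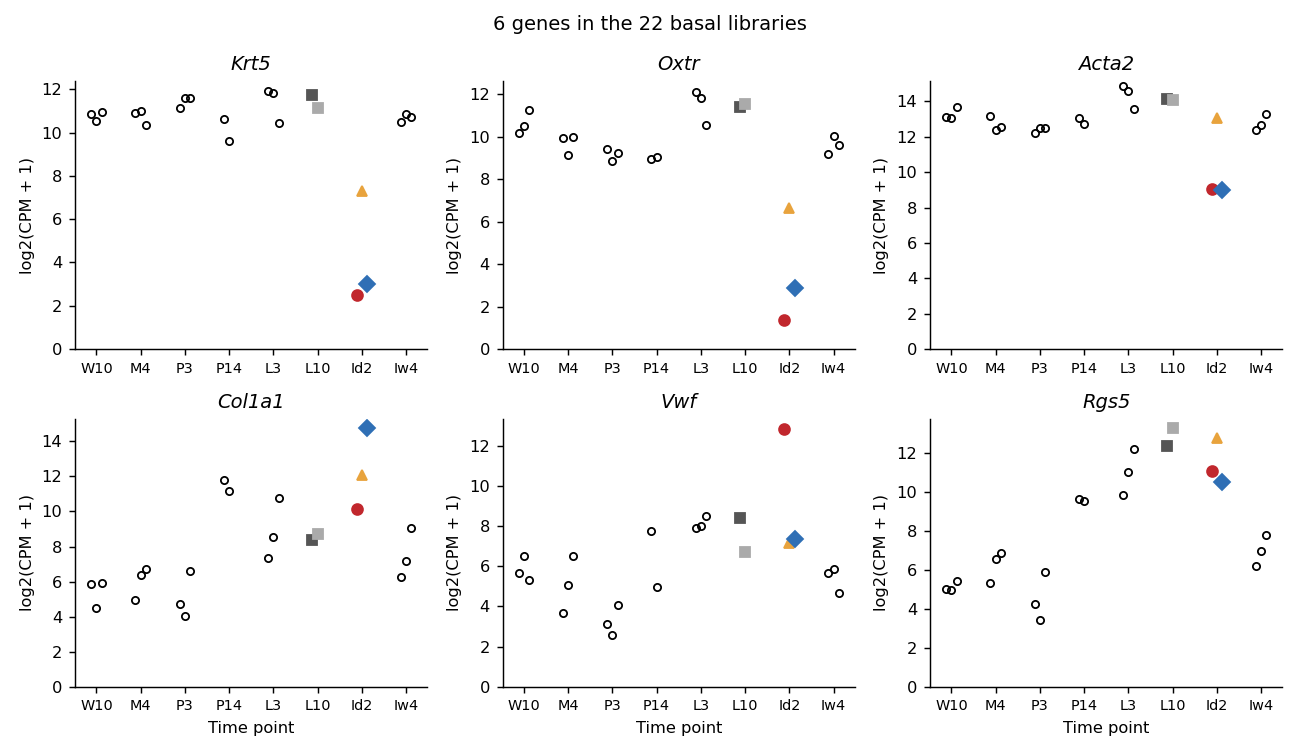
log2(CPM + 1) of *Krt5*, *Oxtr*, *Acta2*, *Col1a1*, *Vwf* and *Rgs5* in the 22 basal libraries by time point, each point 1 library. *Krt5* and *Oxtr* were lower in all 3 Id2 libraries than in any other basal library, while *Vwf* stood out in 1 Id2 library at 7390 CPM.

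The 15 genes that rose most included the fibroblast markers *Lum* and *Pdgfra*, and 14 of the 15 were highest in Id2 replicate 6, the library with the highest fibroblast sum. *Cilp*, a cartilage matrix protein also made by fibroblasts, was at 172, 234 and 3007 CPM at Id2 and at 0.524 and 0 CPM at L10 (8.65 ± 1.18, limma adjusted p = 1.24e-06). Replicate 6 was far above the other 2 Id2 libraries. That all 3 lay above both L10 libraries was a condition for being among these 15 genes. *Svep1*, an extracellular adhesion protein, was at 116, 298 and 2757 CPM against 9.26 and 1.14 CPM. *Mfap4*, a microfibril protein, was at 88.8, 162 and 1791 CPM against 3.49 and 1.04 CPM. *Pdgfra* rose by 6.50 ± 1.20 (limma adjusted p = 1.20e-04). Lumican (*Lum*), a collagen-binding proteoglycan, was at 87.9, 318 and 2170 CPM against 8.04 and 6.08 CPM, called by limma and not by edgeR. The bone morphogenetic factor *Gdf6* was at 5.78, 40.1 and 227 CPM while both L10 libraries were at 0.

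*Crabp1*, a retinoic acid carrier, was at 18.4, 159 and 350 CPM at Id2 and at 0.0873 and 0 CPM at L10. *Bmper*, a BMP modulator, was at 11.9, 80.2 and 270 CPM against 0.437 and 0.095 CPM. *Mrc2*, an endocytic collagen receptor, was at 44.2, 142 and 886 CPM against 4.02 and 1.71 CPM. *Abca8a*, a lipid transporter, was at 26.4, 28.7 and 714 CPM against 0.175 and 2.75 CPM. The interferon-inducible genes *Ifi204* (50, 26.4 and 217 CPM against 1.14 and 0.19 CPM) and *Ifi205* (23.7, 29.7 and 482 CPM against 0.437 and 0.38 CPM) also rose. Both belong to one gene family, and whether reads were split between them was not tested. *Timp1* was the only gene of the 15 not highest in replicate 6. It was at 86.8, 1220 and 979 CPM against 7.42 and 4.84 CPM (6.07 ± 0.77, limma adjusted p = 3.48e-07), with replicates 4 and 6 alike. It encodes an inhibitor of matrix metalloproteinases. *Cmah*, an enzyme of sialic acid synthesis, was at 108, 52.7 and 179 CPM against 0.524 and 0 CPM, the most even rise of the 15.

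Of the 16 fibroblast markers 6 rose by limma (5.63% of all genes did) and 4 by edgeR (5.15%). In 10 all 3 Id2 libraries lay above both L10 libraries (19.8% of all genes), and the median was 3.11. The limma calls became 3 without Id2 replicate 6, where the median was 1.97, and 0 without L10 replicate 6, where the median was 2.65. The median was 1.24, 2.31 and 5.32 in replicates 2, 4 and 6. The interstitial collagens had a median of 1.37, but only 1 of 16 rose, near the 5.63% of all genes that did. Without Id2 replicate 2, 5 rose and the median was 2.33, and without Id2 replicate 6 the median was 0.54 with 1 higher and 1 lower. Their median was −0.64 in replicate 2, 1.68 in replicate 4 and 3.10 in replicate 6. *Col1a1* was at 1148, 4359 and 27788 CPM against 333 and 419.1 CPM. *Col15a1*, a collagen of the basement membrane zone around vessels and muscle, was the member that rose, at 723, 417 and 1830 CPM against 24.2 and 27.4 CPM (4.94 ± 0.83). This list shares 3 genes with the fibroblast markers.

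Collagen processing genes had a median of 1.27, with 4 of 19 risen by limma (5.63% of all genes) and 2 by edgeR (5.15%). The 4 calls became 2 without Id2 replicate 6 or L10 replicate 5 and 1 without L10 replicate 6, and the median was 0.58 without Id2 replicate 6. Lysyl oxidase (*Lox*), which crosslinks collagen, was at 310, 1812 and 5708 CPM against 102 and 79.6 CPM. Its relative *Loxl4* was at 15.8, 16.8 and 50.7 CPM against 2.36 and 0.95 CPM. *Loxl1* (26.9, 125 and 541 CPM against 14 and 10.9 CPM) and the prolyl hydroxylase *P4ha3* (11.2, 31.3 and 230 CPM against 3.41 and 0.095 CPM) rose by limma only. *Pcolce*, which enhances procollagen cleavage, was at 78.4, 296 and 920 CPM against 124 and 291 CPM and did not pass. The procollagen protease *Tll1* was at 266, 9.4 and 11.6 CPM against 12.7 and 3.7 CPM, high in replicate 2 alone, and did not pass either.

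Matrix proteases rose in 4 of 26 genes (5.63% of all genes rose), with none fallen and a median of 0.94. Leaving out either L10 library left 2 calls, and without Id2 replicate 2 there was 1 fall. *Mmp3*, stromelysin 1, was at 12.8, 21.2 and 194 CPM at Id2 and at 0 in both L10 libraries. *Mmp19* was at 11.6, 60.2 and 301 CPM against 1.66 and 6.27 CPM. Cathepsin B (*Ctsb*), a lysosomal protease, was at 1945, 669 and 668 CPM against 416 and 398 CPM, highest in replicate 2, and rose by 1.23 ± 0.29. The sheddase *Adam10* was at 402, 133 and 134 CPM against 70.3 and 84 CPM. Cathepsin K (*Ctsk*), a collagenase of osteoclasts and fibroblasts, was at 8.59, 27.7 and 133 CPM against 11.1 and 22.6 CPM. Its groups overlapped, and its change of 0.98 ± 0.84 became −0.026 without replicate 6.

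Of 13 protease inhibitors 4 rose and 1 fell (5.63% and 7.68% of all genes), and the median was 0.17. The rises became 2 without Id2 replicate 6 or L10 replicate 6, and the fall was not called without Id2 replicate 6 or L10 replicate 5. The median was 0 without Id2 replicate 4 and 0.051 without L10 replicate 5. *Timp1*, given above, was among those that rose. *Tfpi2*, a serine protease inhibitor of the matrix, was at 53.6, 11.3 and 44.6 CPM against 3.23 and 0 CPM, and *Serpinf1*, also a fibroblast marker, rose too. *Timp4* fell by limma only (3.9, 9.01 and 0.162 CPM against 18.3 and 7.5 CPM), with overlapping groups.

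**Figure D4:**
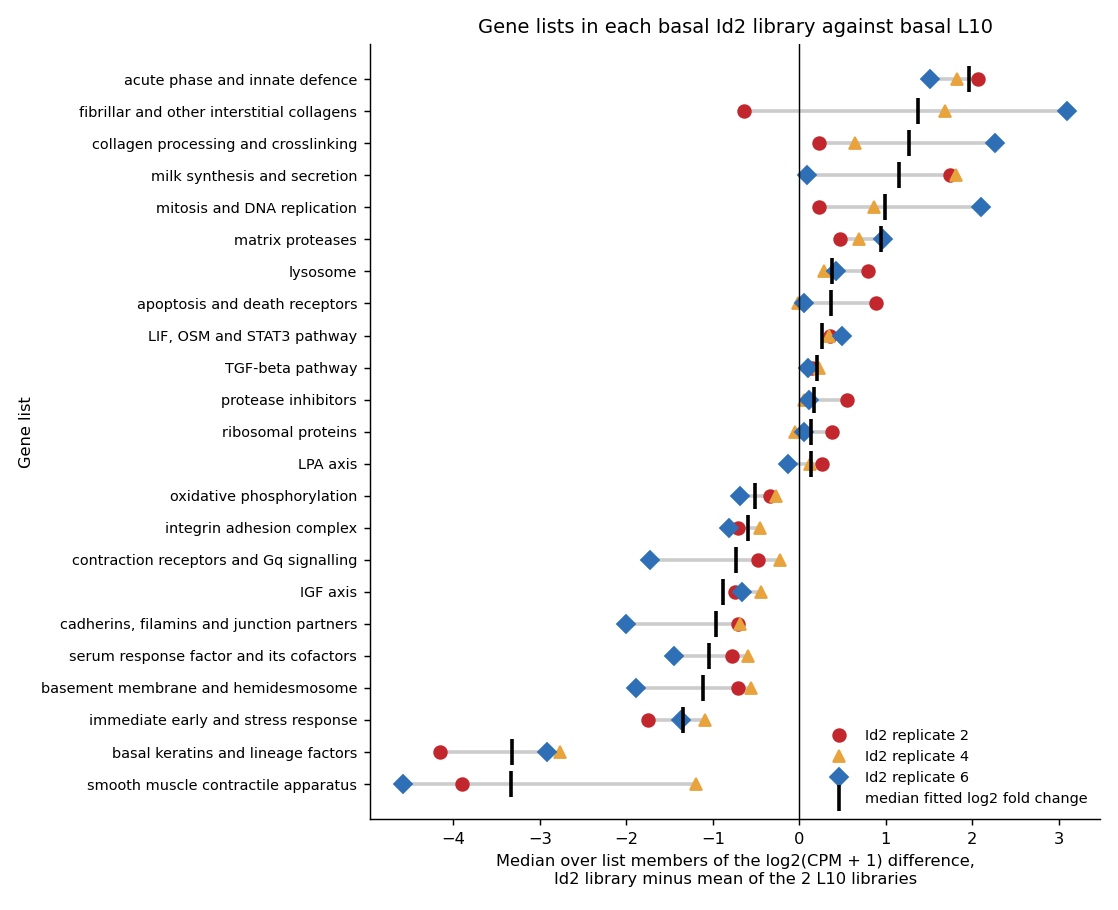
Median log2 difference of CPM + 1 between each Id2 library and the L10 mean for the gene lists, 1 point per Id2 library. The contractile list lay at −3.90, −1.19 and −4.58 in replicates 2, 4 and 6 and the interstitial collagens at −0.64, 1.68 and 3.10, while the acute phase list lay at 2.07, 1.82 and 1.51.

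Genes of the involution signal moved in a few members. In the LIF, OSM and STAT3 list 5 of 20 rose and 2 fell (3 and 2 by edgeR), with a median of 0.27. Of all genes 5.63% rose and 7.68% fell by limma. Leaving out L10 replicate 6 left 1 higher and 0 lower, 3 were higher without Id2 replicate 4, and none was lower without Id2 replicate 2, Id2 replicate 6 or L10 replicate 5, where the median was 0.51. *Lif*, the cytokine that starts STAT3 signalling after weaning, was at 102, 329 and 129 CPM against 65.7 and 4.27 CPM. All 3 Id2 libraries were above L10, where the 2 libraries themselves lay far apart, and limma but not edgeR called it (3.13 ± 0.74). The kinase genes *Jak1* (1075, 467 and 693 CPM against 284 and 261 CPM) and *Jak2* (346, 90 and 152 CPM against 45 and 24.6 CPM) rose by both tools. So did *Pim1*, a STAT3 target kinase. *Il11* rose by limma only from near 0. *Fos*, at 652, 1007 and 896 CPM against 3362 and 3922 CPM, and *Junb*, at 188, 298 and 231 CPM against 534 and 685 CPM, fell.

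Of 17 immediate early and stress genes 5 fell and none rose, where 7.68% of all genes fell and 5.63% rose. In 12 all 3 Id2 libraries lay below L10 (18% of all genes), and the median was −1.34. The 5 calls became 3 without Id2 replicate 6, 2 without Id2 replicate 2 and 0 without L10 replicate 6, where the median was −1.05. *Egr1* was at 1600, 3612 and 5013 CPM against 11521 and 14494 CPM. *Atf3* was at 306, 524 and 157 CPM against 1325 and 1469 CPM, and *Jun* at 717, 920 and 858 CPM against 1991 and 2949 CPM.

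Acute phase and innate defence genes had list medians above L10 in all 3 Id2 libraries, of 2.07, 1.82 and 1.51 in replicates 2, 4 and 6. Of 22 genes 7 rose (6 by edgeR) and none fell, where 5.63% of all genes rose by limma. The list had 14 genes above L10 in every Id2 library (19.8% of all genes), and its median was 1.96. Without L10 replicate 6, 1 gene was called and the median was 1.34. *Lbp*, which binds bacterial lipopolysaccharide, was at 1284, 407 and 130 CPM against 72 and 37.5 CPM. Serum amyloid *Saa1* was at 34.4, 18.5 and 14.7 CPM against 0.437 and 0.095 CPM. The orosomucoid *Orm1* was at 28.9, 23.5 and 7.11 CPM against 1.05 and 0.095 CPM. *Saa2* and *Orm2* rose too, but each is a near copy of the former, and reads may be shared. The monocyte chemokine genes *Ccl2* (97.6, 346 and 695 CPM against 42.2 and 31.1 CPM) and *Ccl7* (14.4, 79.8 and 314 CPM against 5.33 and 10.5 CPM) followed the order of the fibroblast sum instead. *Lbp* averaged 2754 CPM in the luminal Id2 libraries.

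Of 19 genes of milk synthesis and secretion 2 rose and none fell, where 5.63% of all genes rose and 7.68% fell. The list median was 1.15. Without L10 replicate 6 none was called and the median was 0.46 (1.82 without L10 replicate 5). *Lalba*, the milk whey protein alpha-lactalbumin, was at 166, 135 and 21.3 CPM against 5.68 and 1.99 CPM, and the lipid droplet gene *Plin2* was at 185, 156 and 130 CPM against 51.8 and 36.6 CPM. The luminal Id2 libraries averaged 1175 CPM of *Lalba*. Of the 20 luminal markers 3 fell and none rose, beside 7.68% of all genes fallen and 5.63% risen. Of the 20 changes 12 were positive, and the median was 0.34 (−0.33 without L10 replicate 6). Leaving out L10 replicate 5 left 1 lower and 2 higher, leaving out Id2 replicate 6 left 1 and 1, and leaving out Id2 replicate 2 left 5 lower. In replicates 2, 4 and 6, 14, 9 and 4 of them lay above both L10 libraries. The 3 that fell included *Gata3*, a luminal transcription factor, at 15.1, 17.9 and 8.89 CPM against 126 and 65.9 CPM.

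Of 23 genes of apoptosis and death receptors 2 rose and none fell, where 5.63% of all genes rose and 7.68% fell. The list median was 0.37. In replicate 2 19 of them lay above both L10 libraries, against 7 and 10 in replicates 4 and 6. Of all 17078 genes 6701, 6330 and 6526 lay above both L10 libraries in replicates 2, 4 and 6. No gene of the list was called without Id2 replicate 2, where its median was 0.041, or without L10 replicate 6. *Casp8*, the initiator caspase of death receptors, rose and was at 187, 39.1 and 54.3 CPM against 34.2 and 19.7 CPM, highest in replicate 2. Of 20 lysosome genes 4 rose and 1 fell (5.63% and 7.68% of all genes), and 8 lay above L10 in every Id2 library (19.8%). In replicate 2 16 of the 20 were above both L10 libraries, against 8 and 12 in replicates 4 and 6, and the list median of 0.38 was 0.69 without Id2 replicate 4 and 0.23 without Id2 replicate 2. No fall was called without Id2 replicate 6 or L10 replicate 6. *Lamp2*, a lysosomal membrane protein, was at 989, 657 and 886 CPM against 325 and 335 CPM with little spread (1.33 ± 0.25, limma adjusted p = 1.51e-04). The regulator of lysosome genes, *Tfeb*, was at 6.4, 4.94 and 4.2 CPM against 14.5 and 13.2 CPM and fell. In the TGF-beta pathway none of 20 genes was called by limma and 1 was called higher by edgeR. At an unadjusted p under 0.05 limma had 5 higher and 2 lower, and the median was 0.20. This median was 0.036 without Id2 replicate 6 and 0.31 without Id2 replicate 4. Calls appeared with a library left out: 3 higher without Id2 replicate 2, 1 higher and 1 lower without Id2 replicate 4, and 1 higher without L10 replicate 5. Median-ratio scaling gave 2 higher.

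The IGF and LPA axes held few changed members, given here beside the 5.63% of all genes that rose and the 7.68% that fell. *Igf1*, a growth factor that stromal cells make, was at 555, 224 and 1788 CPM against 34.1 and 4.08 CPM and rose by 5.51 ± 1.02 (limma adjusted p = 1.20e-04). *Igf2* was at 100, 648 and 56.9 CPM against 1790 and 1324 CPM. It fell by limma, but another gene covers 62.8% of its exon bases. The receptor *Igf2r* (511, 380 and 332 CPM against 278 and 344 CPM) and the adaptor *Grb10* (213, 129 and 287 CPM against 95.4 and 121 CPM) did not pass. Of 15 IGF genes 1 rose and 2 fell, and none fell by edgeR, without Id2 replicate 2 or without either L10 library. The rise, of *Igf1*, was not called without L10 replicate 6. Among 12 genes of the LPA axis 2 rose and 1 fell, with no rise called without L10 replicate 5 and 1 without Id2 replicate 6. The receptor *Lpar1* was at 8.59, 52.3 and 225 CPM against 2.1 and 4.37 CPM (3.58 ± 0.79), and *Enpp2*, which makes LPA, was at 24, 30.3 and 60.4 CPM against 15 and 22.3 CPM without passing the test. *Lpar5* was at 0 in all 3 Id2 libraries and at 5.94 and 5.51 CPM at L10.

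Against W10, within 1 amplification batch but in another lane, 1500 genes were higher (8.78%) and 1465 lower (8.58%) at Id2 by limma, and 1511 (8.85%) and 1196 (7%) by edgeR. Of the 1312 genes that fell from L10, 574 were also lower than W10, 671 were not called and 67 were higher. Of the 962 that rose from L10, 369 were also higher than W10, 2 were lower and 591 were not called. Of the keratin and lineage list 21 of 25 genes were lower than W10 (19 by edgeR) and 1 (*Procr*) higher. Of the 14 myoepithelial markers 12 were lower (10 by edgeR). Of the 20 contractile genes 9 were lower and 1 (*Des*) higher by limma, but only 2 were lower and 1 higher by edgeR. *Cnn1* was 5.38 lower than W10 and *Oxtr* 7.01 lower on the log2 scale, whereas *Myl9*, *Mylk* and the actin-binding *Cald1* did not pass the test. Of the 28 basement membrane genes 12 were lower and 4 higher. Of the other cell types, 10 of 16 fibroblast markers, 14 of 16 endothelial markers and 10 of 12 pericyte markers were higher than at W10, and none was lower. Of the 15 myeloid markers 7 were higher (4 by edgeR) and none lower. Of the 20 luminal markers 7 were lower (5 by edgeR) and none higher, and of the 7 Schwann markers 2 were lower and none higher. Of the 8 adipocyte markers 2 were higher and 1 lower by limma, and 5 were higher and 0 lower by edgeR. The comparisons with L10 and W10 share the Id2 libraries.

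The change was compared with that in the luminal cells, of which 5 of the 6 libraries came from the same sorts as the basal ones (luminal L10 replicate 4 had no basal partner). The change from L10 to Id2 was more positive in the basal than in the luminal libraries for 254 genes (1.49%) and more negative for 383 (2.24%) by the limma interaction test. With the sort as a block these counts were 477 and 609. Without L10 replicate 6 they were 45 and 177, without Id2 replicate 6 the first was 142, without L10 replicate 5 it was 473, and without Id2 replicate 4 the second was 739. By edgeR they were 186 (1.09%) and 178 (1.04%). Of the contractile list 11 of 20 genes fell more in the basal libraries by limma and 3 by edgeR. Of the keratin and lineage list 5 of 25 did by limma and 2 by edgeR, and the difference between the lists was not tested. *Krt5* was lower at Id2 in the libraries of both compartments. The luminal libraries went from 71.2, 1143 and 310 CPM at L10 to 3.56, 4.12 and 1.63 CPM at Id2. The difference of −0.95 ± 1.19 did not pass. *Krt14* did likewise, from 104, 745 and 331 CPM to 5.73, 8.23 and 9.15 CPM. The sum of the 14 myoepithelial markers averaged 1436 CPM in the luminal L10 libraries and 229 CPM in the luminal Id2 libraries. Whether the luminal keratin levels came from basal cells in the luminal sort was not tested.

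The 5 genes with the largest excess decrease in the basal libraries were *Oxtr*, *Cnn1*, *Actg2*, *Sept3* and *Grik3*. *Oxtr* went from 79, 40.4 and 62.4 CPM at luminal L10 to 15.6, 27.1 and 49.6 CPM at luminal Id2, a difference of changes of −6.78 ± 1.17 (limma adjusted p = 2.14e-04). *Sept3*, a septin, was at 0.156, 0.194 and 0 CPM at basal Id2 and at 37.9 and 45.7 CPM at basal L10, while all luminal libraries of both stages were below 1 CPM. *Grik3*, a glutamate receptor, was at 1.72, 20.3 and 1.62 CPM against 155 and 294 CPM. The 5 with the largest excess increase were *Cmah*, *Smoc2*, *Pycr1*, *Nav3* and *Fbln1*. *Nav3*, a cytoskeletal guidance protein, was at 28.4, 35 and 100 CPM against 1.66 and 0.095 CPM in basal libraries and overlapped between stages in luminal ones, at 29.6, 44.5 and 49.8 CPM against 47, 66.2 and 39.6 CPM (5.09 ± 0.71, limma adjusted p = 1.4e-05). *Smoc2*, a matrix glycoprotein, was at 14.2, 42.5 and 265 CPM against 1.22 and 0.475 CPM. *Pycr1*, of proline synthesis, was at 5.47, 17 and 77.9 CPM against 2.01 and 0.19 CPM. *Fbln1*, a fibroblast marker, was at 13.9, 22.9 and 180 CPM against 6.55 and 1.99 CPM. These 5 increases were all highest in replicate 6, as the fibroblast sum was.

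**Figure D5:**
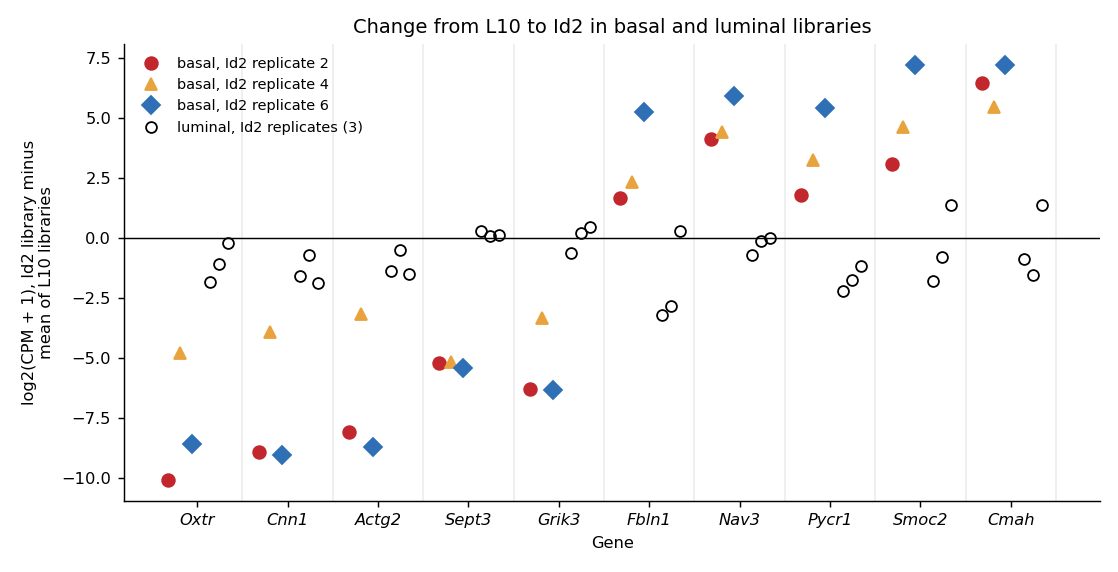
Difference of log2(CPM + 1) between each Id2 library and the mean of the L10 libraries of its compartment, for the 10 genes with the largest differences of change, each point 1 Id2 library. The 5 genes on the left (*Oxtr* to *Grik3*) were below 0 in all 3 basal libraries and the 5 on the right (*Fbln1* to *Cmah*) above 0.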

How the data were processed

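Basal and luminal cells from 8 time points were profiled by RNA-seq (46 libraries with values, depth 4398806 to 20023054 reads), and the 5 basal libraries of Id2 and L10 were compared here. The members and gene lists were chosen with earlier results of these data known. RNA was amplified with a kit that does not mark strand. Per the paper's methods and the submitters' processing notes, reads were aligned with GSNAP to the mouse genome and counted per gene with HTSeq, and the authors removed genes with low counts and a few very abundant ones. The deposited values are a signal of counts scaled to CPM and normalized with edgeR by the authors. All values gave whole reads within a relative tolerance of 1e-06, so counts could be recovered. Of 17078 gene IDs 16897 had a symbol in the reference tables.

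Differences were fitted with limma (version 3.58.1 in R 4.3.3) on log2(CPM + 1) over all 46 libraries and 17078 genes, with 16 group means, a trend of variance with level and Benjamini-Hochberg adjustment. A gene was called at a change of at least 2-fold and an adjusted p under 0.01. The comparisons were Id2 with L10 in the basal libraries, the difference of this change from that in the luminal libraries, and Id2 with W10 in the basal libraries. edgeR (version 4.0.16, applied to the recovered reads with its quasi-likelihood test) was the alternative count test. Other alternatives were another pseudocount, a filter on low values, another threshold, median-ratio scaling, fits on fewer groups, the sort as a block and each library left out. Scripts were tested on simulated counts, where limma recovered more of the changed genes than edgeR but made many more false calls, so that calls by limma alone are less certain.

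Named genes were the members of the 35 lists, the 15 largest increases and decreases among called genes with non-overlapping groups, the 5 largest differences from luminal cells in each direction, and 16 genes that the study discusses. Each library is 1 sort of pooled mice. The p-values rest on a spread between such pools that was estimated over all 16 groups, not from Id2 and L10 alone. The Id2 basal libraries had the highest median SD of the 16 groups (0.444), so the shared estimate may understate their spread. Promoters came from RefSeq (GRCm38.p6), a later build than the authors used, and no coordinate of the files was used. Reads of genes whose exons overlap another gene cannot be told apart without strand. Some genes of the lists are counted but not reported here by name. Of 566 genes with values 12 had at least 25% of their exon bases overlapped.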

Additional observations from a re-analysis of the deposited data

Results flagged for a closer look

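By limma's interaction test the change from L10 to Id2 differed between basal and luminal libraries. It was more positive in the basal libraries for 254 genes and more negative for 383. The 5 largest positive differences on the log2 scale were *Cmah* at 6.72, *Smoc2* at 5.37, *Pycr1* at 5.18, *Nav3* at 5.09 and *Fbln1* at 5.01. All 5 were higher in every basal Id2 library than in either basal L10 library, and *Smoc2*, *Pycr1* and *Fbln1* were far higher in replicate 6, where the fibroblast sum was 105092 CPM.

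The 5 largest negative differences were *Oxtr* at −6.78, *Cnn1* at −5.89, *Actg2* at −5.51, *Sept3* at −5.42 and *Grik3* at −5.33. All 5 were lower in every basal Id2 library than in either basal L10 library, and *Oxtr*, *Cnn1*, *Actg2* and *Grik3* were highest of the 3 in replicate 4, where the myoepithelial sum was 18054 CPM. No explanation was tested. Groups of 2 and 3 libraries are too small for an outlier test.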

How the results depend on the processing

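Among single libraries, L10 replicate 6 lowered the counts most when left out. Leaving out 1 library at a time gave 320 to 1130 genes higher and 582 to 1554 lower at Id2 than L10 (962 and 1312 with all). For the difference from luminal cells the ranges were 45 to 473 more positive and 177 to 739 more negative, lowest in both without L10 replicate 6. At an adjusted p under 0.05 the counts were 1602 higher than L10, and 773 and 916 for the difference from luminal cells. A fit on basal libraries alone called 596 higher. A fit on the compared groups alone called 0 higher and 0 lower by limma (1361 and 1449 at an unadjusted p under 0.05), 0 and 10 for the difference from luminal cells, and 180 higher and 287 lower than W10. It has few residual degrees of freedom. The sort as a replicate block gave 477 and 609 for the difference from luminal cells and 997 and 1299 for Id2 with L10. Luminal and basal libraries of 1 sort share mice, and 21 of 22 such pairs deviated together (median correlation 0.25). Replicate 6 was the only number shared by basal Id2 and L10.

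For the difference from luminal cells, edgeR called 186 more positive and 178 more negative, and limma and edgeR together 149 and 170. With Id2 replicate 4 as the single Id2 library, an alternative chosen after seeing the data as were those that combine calls, 249 genes were higher and 311 lower than L10, 38 and 64 differed from luminal cells, and 921 and 669 differed from W10. That fit assumes the lone library varies like the other groups. Of 92 values of counts 64 stayed within 1.5 times and 28 did not. Of 704 values of named genes 603 kept direction and call, 90 kept direction without the call, 4 gained it and 7 changed sign. *Ctsk* ranged from −0.026 without Id2 replicate 6 to 1.87 without replicate 2. *Hspg2* was at −0.015 with replicate 4 alone. *Pcolce* was at −0.32 without Id2 replicate 6, −0.066 without L10 replicate 5 and 1.45 without Id2 replicate 2. *Parvb* was at −1.49 without Id2 replicate 2, −0.018 without L10 replicate 6, 0.87 without Id2 replicate 6 and −1.33 with replicate 4 alone. The cause of these changes was not tested. The endothelial median of 0.64 was −0.78 without Id2 replicate 2, and the pericyte median of −1.56 was 0.10 with replicate 4 alone. Depth limits genes near 0.262 to 0.485 CPM.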

Other observations

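Genes of cell division showed levels that differed between the Id2 libraries. Of 20 genes of mitosis and DNA replication none was called between Id2 and L10 by limma or edgeR (5 were higher at an unadjusted p under 0.05), the list median was 0.99, and by library it was 0.23, 0.86 and 2.10 in replicates 2, 4 and 6. The median was 1.65 with 2 genes called higher without L10 replicate 5, 1.43 with 1 called higher without Id2 replicate 2, and 0.55 without Id2 replicate 6. *Mki67*, which marks cycling cells, was at 37.2, 104 and 292 CPM against 94.1 and 50 CPM at L10, and *Top2a*, which untangles DNA before division, at 36.8, 63.2 and 156 CPM against 40.9 and 19.9 CPM. Both overlapped between the groups. The change was more positive than in luminal cells for 2 of the 20 genes, *Birc5* and *Rrm2*.

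Oxidative phosphorylation genes had a median of −0.51, and of 20 genes none was called by either tool, with 2 higher and 8 lower at an unadjusted p under 0.05. The median was −0.16 without L10 replicate 6, 1 gene was called lower without Id2 replicate 2 or L10 replicate 5, and 1 was called higher without Id2 replicate 4. Of 16 ribosomal protein genes none was called by either tool, with 2 higher at that threshold, and the median was 0.14. It was 0.022 without Id2 replicate 2, and 0.23 without Id2 replicate 4 or L10 replicate 6. Median-ratio scaling called 1 higher. The only mast cell gene in the table, *Hdc* (histidine decarboxylase), was at 529 CPM in Id2 replicate 2 and at 17.3 and 13.9 CPM in replicates 4 and 6. *Jchain*, of antibody-secreting cells, was at 1.72, 3.1 and 19.6 CPM at Id2 and at 0 in both L10 libraries. None of the 16 endothelial markers and none of the 15 myeloid markers was called between Id2 and L10 by limma or edgeR, with 0 and 3 of them at an unadjusted p under 0.05. Leaving out L10 replicate 5 gave 2 myeloid markers called higher (median 1.39), and leaving out L10 replicate 6 gave 2 called lower (median −1.14).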
